A study of Mus musculus with 12 samples.

Results

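The 9 genes described here encode transcription factors that keep the hepatocyte differentiated and let it sense foreign chemicals: Nr1i2, Nr1i3, Rxra, Hnf4a, Foxa1, Foxa2, Foxa3, Cebpa and Cebpb. They were chosen by name, as the rows of the deposited table that carry these symbols, and all 9 of them were found among its 21705 genes. Livers of 6 saline-treated and 6 LNA29-treated mice were compared. Every mouse was a female C57BL/6J of 10 to 12 weeks that was injected once in the tail vein, and the liver was taken 7 days later after an 18 h fast. LNA29 is a mixture of locked nucleic acid oligonucleotides against miR-29a and against miR-29b and miR-29c, given at 20 mg/kg each. The control mice received saline and not another oligonucleotide, so that miR-29 inhibition and exposure to an oligonucleotide cannot be told apart in this comparison. The libraries hold polyadenylated RNA of whole liver, in which fewer cells of a type and less RNA per cell cannot be told apart.

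A pair of nuclear receptors in this set senses drugs, bile acids and other small molecules. PXR (Nr1i2) and CAR (Nr1i3) bind DNA as partners of RXR alpha (Rxra) and switch on cytochromes P450, conjugating enzymes and transporters. HNF4 alpha (Hnf4a) is a nuclear receptor needed for most hepatocyte genes, the FOXA proteins are pioneer factors that open liver chromatin, and C/EBP alpha and C/EBP beta (Cebpa, Cebpb) are leucine zipper factors, the first linked to metabolism and quiescence and the second to the acute phase and regeneration.

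The miRNAs that LNA29 binds share their seed, bases 2 to 8, which is shown in capitals in the mature mouse sequences from RefSeq (GRCm38.p6).
mmu-miR-29a-3p: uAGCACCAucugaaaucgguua
mmu-miR-29b-3p: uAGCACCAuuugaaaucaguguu
mmu-miR-29c-3p: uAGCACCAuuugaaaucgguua
The matching letters TGGTGCT were looked for on the transcribed strand in GENCODE M21 (GRCm38), taking per gene the 3′ UTR of greatest length. They occurred in 2758 of 21021 genes (13.1%) and in 1 of the 9 members, Hnf4a. In Hnf4a the match lay in exon 10 of 10 of the transcript Hnf4a-202, at base 393 of a 3′ UTR of 2819 bases, and 25.0% of the 2399 genes whose UTR was within 20% of that length held the same letters. Its 30 bases, chr2:163570473-163570502 on the plus strand, are shown because no other member had a match, with the matched letters in capitals.
Hnf4a: ctcttccttccTGGTGCTggtcagggggcc
A match is a description of the sequence and does not show that the miRNA binds there. The other members' longest 3′ UTRs ran from 506 bases in Cebpb to 3269 bases in Rxra.

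Values are reads per gene divided by the upper quartile of the library and multiplied by 1000, so that a gene at the upper quartile has 1000. They are not divided by gene length. A library held between 7696081 and 19062437 reads and 1 read was worth between 9.80 and 24.4. Saline replicate 49 stood apart, with 35.7% of its reads on albumin against 43.6% to 46.9% in the other 11 livers, and with the strongest trend of its values with transcript length (rho = 0.50). The 4 Mir29 genes had no reads in any liver, as this kind of library does not hold mature miRNA. Col3a1, a collagen gene known as a miR-29 target, ran from 157.9 to 317.5 in the control group and from 341.5 to 937.5 after LNA29 (log2 fold change 1.48 ± 0.28 SE, limma adjusted p = 0.0438). All 12 hepatocyte markers had reads in every liver.

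None of the 9 members passed the test across all genes. Fold changes are LNA29 over saline on the log2(value + 1) scale, fitted with limma over 12486 genes and adjusted by the Benjamini-Hochberg method. With an adjusted p under 0.05, 0 of 9 members were called, against 20 genes in all (0.16% of the genes tested). At an unadjusted limma p under 0.05, 2 of 9 were lower, Nr1i3 and Cebpa, where 5.97% of all genes were, and 0 of 9 were higher, where 1.95% were. The split over all genes depended on the scaling: 745 were lower and 243 higher at that level, but 531 and 368 under TMM scaling, where 1 member, Nr1i3, was lower. Among genes with an adjusted p under 0.05 the split was 11 lower and 9 higher, 4 and 6 with a common median and 5 and 9 under TMM scaling. edgeR and DESeq2 on recovered reads each left 0 members with an adjusted p under 0.05, beside 17 and 72 of all genes (0.136% and 0.577%). Each left 1 member with an unadjusted p under 0.05, Nr1i3, beside 878 and 788 of the 12486 genes tested. In no member were the groups free of overlap, a pattern seen in 0.713% of genes with lower and 0.272% of genes with higher values in LNA29 livers. Of the 9 members 6 had a lower and 3 a higher mean log2 value, with Hnf4a turning from lower to higher under TMM scaling, and 61.4% of all genes tested had a lower mean as deposited. The members' median log2 fold change was -0.26, beside -0.09 over all genes tested. With each liver shifted to a common median these medians were -0.21 and -0.05.

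**Figure D1:**
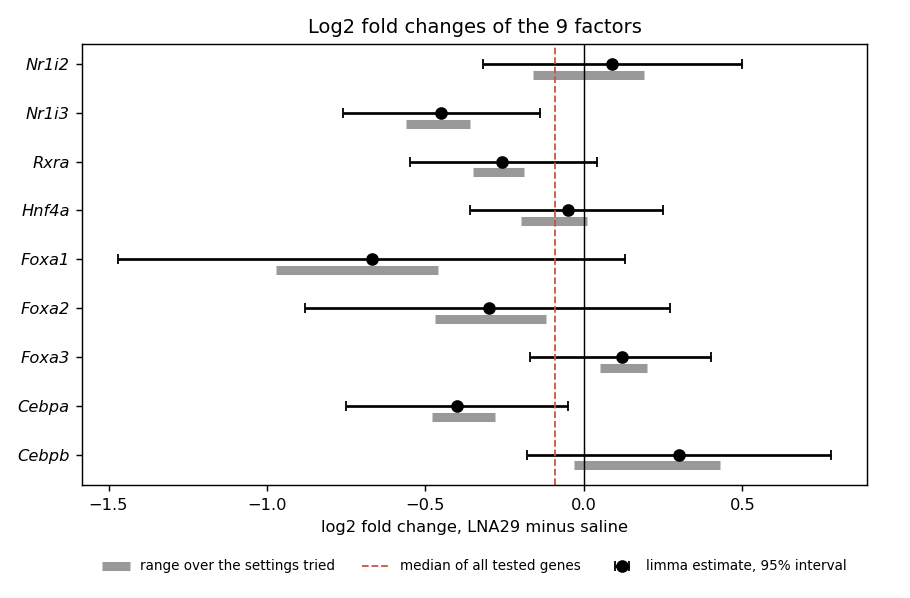
Log2 fold changes of the 9 members (LNA29 minus saline, x axis). Points and black bars are limma estimates with 95% intervals over 6 and 6 livers, grey bars span the fits with other settings or with a liver left out, and the dashed line is the median of all tested genes at -0.09. The intervals of Nr1i3 and Cebpa lie below 0, and the grey bars of Nr1i2, Hnf4a and Cebpb cross 0.

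The CAR gene, Nr1i3 (chr1:171213970-171220701, plus strand, GRCm38), was lower in LNA29 livers. Its values were 8585, 5958, 6620, 7351, 7020 and 7897 in the saline livers and 5096, 5130, 4181, 4859, 5207 and 7697 in the LNA29 livers. LNA29 replicate 54 lay among the saline livers, and the other 5 LNA29 livers lay below all 6 saline livers. The group means were 7239 ± 931 and 5362 ± 1200 (SD, n = 6 each), from 210 to 806 reads per liver. On the log2 scale the fold change was -0.45 ± 0.15 SE with a 95% interval from -0.76 to -0.14, which is 0.732-fold. The two-sided exact permutation test over the livers gave p = 0.0152 and the limma fit an adjusted p of 0.347, the 269th smallest p of all genes. Leaving out each liver in turn kept the log2 fold change between -0.56 and -0.38 with exact p-values from 0.00433 to 0.0303. Without values beyond 1.5 SD of their group mean, which removed LNA29 replicate 54, the log2 fold change was -0.56 with a limma adjusted p of 0.0226, in a fit that called 217 genes (1.74%). Values were left out within each group, which narrows the spread within groups, so this p does not measure the full spread between livers.

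Exons of Nr1i3 overlap those of Tomm40l, a mitochondrial import gene on the opposite strand, over 3304 bases. The reads assigned to Nr1i3 were fractional in every liver, as were those of Tomm40l, while their sum was a whole number in all 12 livers (within 0.02), so that RSEM had split reads between both genes. Tomm40l held 0.180 to 0.271 of the value of Nr1i3 and was likewise lower, with 1532 ± 348 in saline and 1078 ± 179 in LNA29 livers (log2 fold change -0.49 ± 0.17 SE, limma adjusted p = 0.413). Summed over both genes, the log2 difference between the groups was -0.46 (exact permutation p = 0.0152). How the difference divides between the overlapping genes cannot be told from these values.

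Nr1i2, the PXR gene (chr16:38248323-38294824, minus strand), showed no such difference. Its values ran from 1651 to 3253 with a median of 2792 in saline livers and from 1902 to 4264 with a median of 2539 in LNA29 livers. The highest liver, LNA29 replicate 48, was also the liver with the lowest Nr1i3. Means were 2594 ± 565 and 2789 ± 812 (SD, n = 6 each). The log2 fold change of 0.09 ± 0.19 SE had an interval from -0.32 to 0.50 (limma adjusted p = 0.951, exact permutation p = 0.684), so that a fall to 0.802-fold or a rise to 1.42-fold lies within it. Its sign turned with a single liver: it was -0.03 without saline replicate 45 and -0.04 without LNA29 replicate 48.

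Rxra (chr2:27676440-27762957, plus strand), the partner of both receptors, ran from 13350 to 22000 with a median of 18470 in saline livers. In LNA29 livers it ran from 14240 to 17040 with a median of 15510. All 6 LNA29 livers lay below the saline median, but above the lowest saline liver, replicate 45. Means were 18670 ± 3150 and 15470 ± 1110 (SD, n = 6 each), and each liver had 584 to 2178 reads of this gene. Its log2 fold change was -0.26 ± 0.14 SE (limma adjusted p = 0.707, exact permutation p = 0.0498). The exact p was above 0.05 in 10 of the 12 fits with a liver left out, and when livers were brought to a common median it was 0.19 with a log2 fold change of -0.21.

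**Figure D2:**
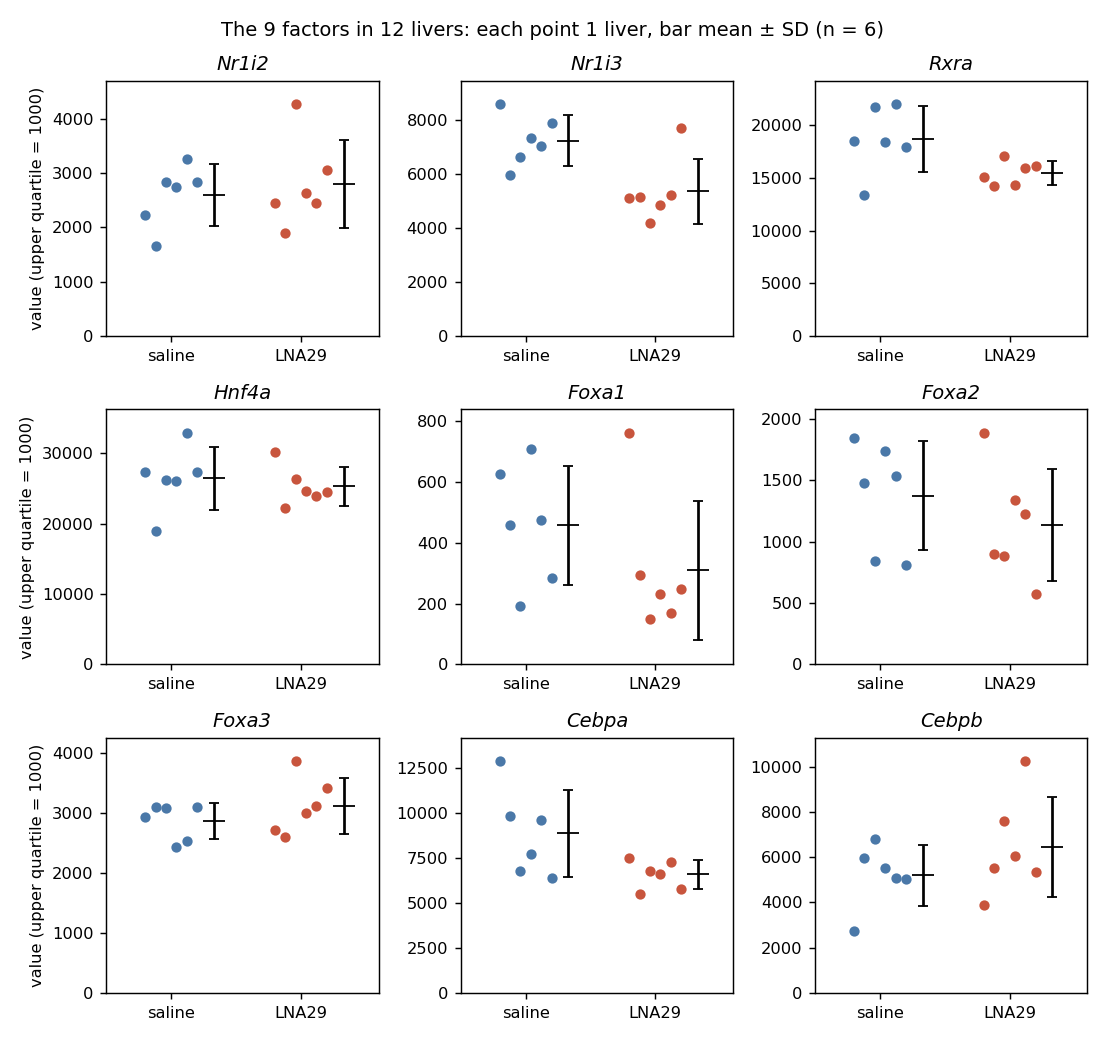
Value of each member (y axis, upper quartile = 1000, from 0) in 6 saline and 6 LNA29 livers. Each point is a liver, and the black bar is the mean ± SD (n = 6). In Nr1i3, 5 of 6 LNA29 livers lie below all saline livers, and in the other members the points of the groups overlap more widely.

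Ratios between the receptors within a liver do not depend on how the library was scaled. The ratio of Nr1i3 to Nr1i2 ran from 2.16 to 3.84 with a median of 2.73 in saline livers and from 0.981 to 2.70 with a median of 2.11 in LNA29 livers, where 4 of 6 were below every saline liver. The log2 difference was -0.54 (exact permutation p = 0.0411, 0.0823 adjusted over 4 ratios), and -0.34 without LNA29 replicate 48, in which the ratio was 0.981. Nr1i2 to Rxra ran from 0.121 to 0.158 in saline and from 0.134 to 0.250 in LNA29 livers, of which 4 of 6 were above every saline liver. Its log2 difference was 0.35 (exact permutation p = 0.0281, adjusted p = 0.0823), and 0.24 without LNA29 replicate 48. Nr1i3 to Rxra had medians of 0.419 and 0.339 and a log2 difference of -0.19 (exact permutation p = 0.251), which was -0.10 without LNA29 replicate 48 and -0.29 without LNA29 replicate 54. After adjustment none of the receptor ratios passed 0.05.

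**Figure D3:**
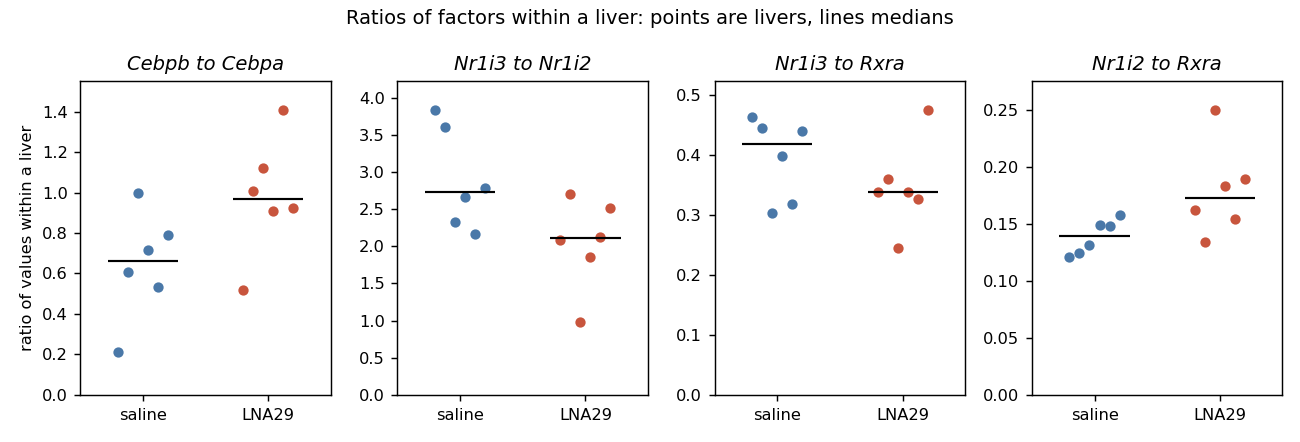
Ratio of the values of 2 members within a liver (y axis, from 0) for 4 pairs. Points are the 6 saline and 6 LNA29 livers, and lines are medians. For Nr1i3 to Nr1i2 the medians are 2.73 and 2.11, and for Cebpb to Cebpa 0.661 and 0.965.

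Hnf4a (chr2:163506808-163572910, plus strand) had the highest value of the members. It ran from 18920 to 32890 with a median of 26740 in saline livers and from 22220 to 30110 with a median of 24530 in LNA29 livers, and the LNA29 livers lay within the saline range. The means of 26450 ± 4470 and 25270 ± 2720 (SD, n = 6 each) rested on 911 to 3256 reads. Its log2 fold change was -0.05 ± 0.15 SE with an interval from -0.36 to 0.25 (limma adjusted p = 0.967, exact permutation p = 0.675). Under TMM scaling it was 0.01.

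Foxa1 (chr12:57540628-57546916, minus strand) ran from 193.0 to 710.0 with a median of 467.5 in saline livers and from 150.9 to 762.5 with a median of 239.4 in LNA29 livers, on only 8 to 71 reads per liver. The highest liver of all was LNA29 replicate 44, and the other 5 LNA29 livers were at 292.7 or less. Its log2 fold change was -0.67 ± 0.38 SE (limma adjusted p = 0.726, exact permutation p = 0.162), and -0.97 without LNA29 replicate 44 (exact permutation p = 0.0303). Across the 12 livers Foxa1 followed the length trend of the libraries (Pearson r = 0.777, as a description), and with that trend as a covariate the log2 fold change was -0.63 with an unadjusted limma p of 0.0181 and an adjusted p of 0.268.

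Foxa2 (chr2:148042877-148046969, minus strand) ran from 813.7 to 1844 in saline and from 575.3 to 1888 in LNA29 livers, with medians of 1506 and 1064. LNA29 replicate 44 was again the highest liver. Its log2 fold change was -0.30 ± 0.27 SE (limma adjusted p = 0.859, exact permutation p = 0.355), and it was -0.47 without LNA29 replicate 44 and -0.12 without LNA29 replicate 54. Foxa3 (chr7:19013284-19023538, minus strand), the most abundant FOXA gene per length, was the least variable member, with a highest value 1.59 times the lowest over the 12 livers. It ran from 2430 to 3111 in saline and from 2610 to 3868 in LNA29 livers, and 3 of 6 LNA29 livers were above all saline livers. Its log2 fold change was 0.12 ± 0.13 SE (limma adjusted p = 0.893, exact permutation p = 0.316). It was 0.05 without LNA29 replicate 48, 0.07 without saline replicate 49 and 0.08 without saline replicate 51.

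Cebpa (chr7:35119293-35121928, plus strand) was lower in LNA29 livers. It ran from 6382 to 12860 with a median of 8653 in saline livers and from 5512 to 7500 with a median of 6709 in LNA29 livers. All 6 LNA29 livers were below the saline median and 2 were below all saline livers. Means were 8863 ± 2420 and 6580 ± 799 (SD, n = 6 each), on 226 to 949 reads. Its log2 fold change was -0.40 ± 0.17 SE, with an interval from -0.75 to -0.05 (limma adjusted p = 0.539, exact permutation p = 0.0476). Saline replicate 43 held the highest value, and without it the log2 fold change was -0.28 (exact permutation p = 0.0887). The exact p was above 0.05 in 9 of the 12 fits with a liver left out.

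Cebpb (chr2:167688915-167690418, plus strand) ran from 2738 to 6804 with a median of 5307 in saline livers and from 3901 to 10250 with a median of 5788 in LNA29 livers. Saline replicate 43, the highest liver for Cebpa, was the lowest for Cebpb. The log2 fold change was 0.30 ± 0.23 SE (limma adjusted p = 0.81, exact permutation p = 0.31), and -0.03 without values beyond 1.5 SD. It was 0.12 without saline replicate 43 and 0.15 without LNA29 replicate 52. The exons of Cebpb overlap those of Tmem189, on the opposite strand, over 312 bases, and its reads were whole in only 2 of 12 livers while the sum of both genes was whole in all 12. Tmem189 was at 634.7 ± 143 in saline and 945.4 ± 308 in LNA29 livers (log2 fold change 0.54 ± 0.23 SE, limma adjusted p = 0.57), between 0.0546 and 0.352 of Cebpb. Summed over both genes, the log2 difference between the groups was 0.33 (exact permutation p = 0.158). The division of this difference between Cebpb and Tmem189 cannot be told from these values, and the ratio to Cebpa uses Cebpb as assigned. The ratio of Cebpb to Cebpa ran from 0.213 to 1.0 in saline and from 0.520 to 1.41 in LNA29 livers. Its log2 difference was 0.69 (exact permutation p = 0.0758, adjusted p = 0.101), and 0.40 without saline replicate 43. It passed an unadjusted exact permutation p of 0.05 without saline replicate 47 (0.85, p = 0.0325) or LNA29 replicate 44 (0.86, p = 0.0216).

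Levels of different genes were compared per kilobase of the principal transcript in GENCODE M21. In saline livers Hnf4a was highest with 6070 ± 1030 per kilobase (SD, n = 6), followed by Nr1i3 with 5120 ± 658, Rxra with 3810 ± 642, Cebpb with 3450 ± 910 and Cebpa with 3380 ± 920. Below these came Foxa3 with 1410 ± 151, Nr1i2 with 1020 ± 221, Foxa2 with 646 ± 209 and Foxa1 with 143 ± 61.4. Rxra and Cebpb were not separated, as Rxra was higher in 5 of 12 livers, 4 of 6 saline and 1 of 6 LNA29 livers. Cebpb was above Cebpa in 9 of 12. Each of the other neighbours in the saline order was separated in 11 or 12 of the 12 livers. In LNA29 livers the means were ordered otherwise, with Cebpb at 4280 ± 1470, Nr1i3 at 3790 ± 852 and Rxra at 3150 ± 227 per kilobase. This difference in order was not tested. The place of Nr1i3 depends on the transcript: for its longest coding transcript of 2980 bases, in place of 1414 bases, its saline mean was 2430 per kilobase, and it was below Rxra in all 12 livers.

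**Figure D4:**
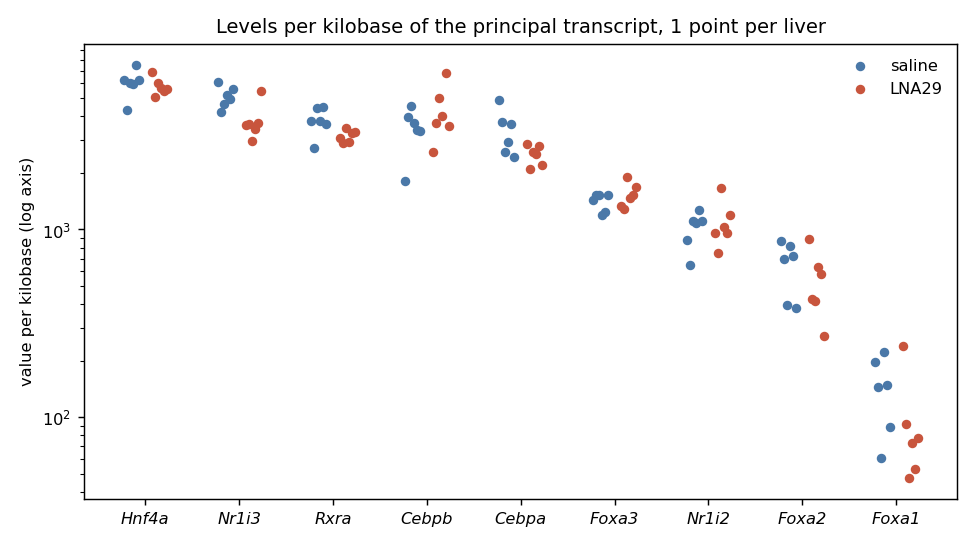
Value per kilobase of the principal transcript (log axis) for the 9 members, with 1 point per liver. Saline means fall from 6070 for Hnf4a to 143 for Foxa1, and the points of Rxra and Cebpb overlap.

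The receptors were set beside their best known target genes, and over all 12 livers neither pair had a correlation with p under 0.05. Correlations over 12 livers, here and below, pool both groups, so a difference between the groups enters r and its p. Cyp3a11, a main drug-metabolizing cytochrome P450 and the classical target of PXR, ran from 62010 to 190800 in saline and from 143600 to 405800 in LNA29 livers (log2 fold change 1.15 ± 0.29 SE, limma adjusted p = 0.172, exact permutation p = 0.00433, DESeq2 adjusted p = 0.00476). Of the LNA29 livers 5 of 6 were above all saline livers, while Nr1i2 itself had a log2 fold change of 0.09. Over the 12 livers Nr1i2 and Cyp3a11 had r = -0.212 (permutation p = 0.513) and rho = -0.245 (permutation p = 0.442), and r = -0.407 without the 2 livers farthest from the median of Nr1i2. With a single liver left out r ranged from -0.389 without LNA29 replicate 48 to -0.0837 without saline replicate 51. Within the 6 saline livers r was -0.939 (exact permutation p = 0.00417) and rho -0.943 (exact permutation p = 0.0167), and within the 6 LNA29 livers r was -0.0194 (exact permutation p = 0.953). The p-values within a group are not adjusted, and the difference between the groups' correlations was not tested.

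Cyp2b10, the classical target of CAR, ran from 730.0 to 3032 in saline and from 964.2 to 4585 in LNA29 livers, and 4 of 6 LNA29 livers were above all saline livers (log2 fold change 1.02 ± 0.40 SE, limma adjusted p = 0.487, exact permutation p = 0.0671). Nr1i3 had a log2 fold change of -0.45, opposite in sign to that of Cyp2b10, while the related Cyp2b13 and Cyp2b9 had log2 fold changes of -0.99 and -0.49. The correlation of Nr1i3 and Cyp2b10 was r = -0.285 (permutation p = 0.362) and rho = -0.315 (permutation p = 0.322) over 12 livers. With a single liver left out r ranged from -0.593 without LNA29 replicate 48 (permutation p = 0.0597) to -0.124 without saline replicate 43 (permutation p = 0.716). It was r = -0.474 without the 2 livers farthest from the median of Nr1i3, -0.460 within saline and 0.571 within LNA29 livers (exact permutation p = 0.344 and 0.253).

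Hnf4a and Rxra were correlated over the 12 livers, with r = 0.691 (permutation p = 0.0118, 0.047 adjusted over 4 relations) and rho = 0.678 (permutation p = 0.0188). The relation rests on saline replicates 45 and 51, the livers farthest from the median of Hnf4a, as r was 0.348 without them (permutation p = 0.321). Within saline livers r was 0.884 (exact permutation p = 0.0417) and rho 0.6 (exact permutation p = 0.242). Within LNA29 livers r was 0.233 (exact permutation p = 0.689). These p-values within a group are not adjusted. Hnf4a and Nr1i3 gave r = 0.229 (permutation p = 0.482) and rho = 0.210 (permutation p = 0.513), with 0.581 within saline livers, -0.197 within LNA29 livers and 0.208 without the same pair of livers. With a single liver left out r ranged from 0.157 without saline replicate 51 to 0.357 without LNA29 replicate 44.

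**Figure D5:**
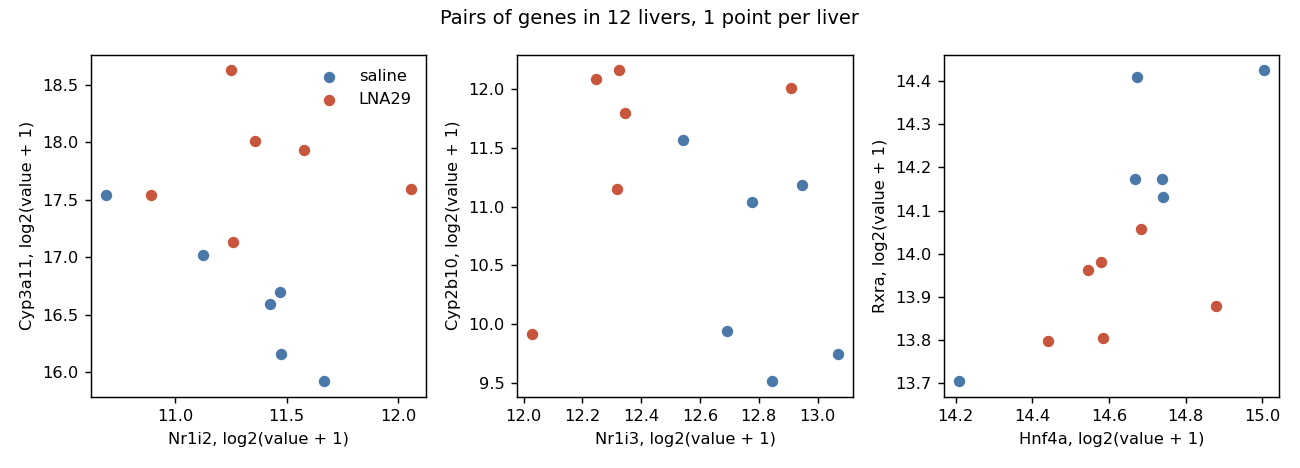
Log2(value + 1) of Cyp3a11 against Nr1i2, Cyp2b10 against Nr1i3 and Rxra against Hnf4a, with 1 point per liver in each panel. Within the 6 saline livers Cyp3a11 is lower where Nr1i2 is higher (r = -0.939), and for Rxra and Hnf4a saline replicates 45 and 51 lie at the lower left and upper right.

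Among 31 tested CAR and PXR targets, 0 passed the adjusted limma test. At an unadjusted limma p under 0.05, 8 were lower (25.8%, beside 5.97% of all genes) and 4 were higher (12.9%, beside 1.95%). The median log2 fold change was -0.33, beside -0.09 over all genes tested. The higher ones were Cyp3a11, Cyp2b10, Gadd45b and Sult1d1. Gadd45b, a stress-induced gene known to respond to CAR, had 432.9 ± 161 in saline and 832.5 ± 224 in LNA29 livers (log2 fold change 0.97 ± 0.24 SE, limma adjusted p = 0.141). The lower ones included Cyp2a5, a coumarin-hydroxylating P450, with a log2 fold change of -1.22 ± 0.33 SE (limma adjusted p = 0.21). Other P450 genes among them were Cyp2b13 (-0.99 ± 0.27 SE, limma adjusted p = 0.21), Cyp2b9 (-0.49 ± 0.19 SE, limma adjusted p = 0.498) and Cyp2c29 (-0.41 ± 0.19 SE, limma adjusted p = 0.606). Cyp2c55 was also lower but had at most 3 reads in any liver. DESeq2 called 3 of the 31 with an adjusted p under 0.05, Cyp3a11, Gadd45b and Sult1d1, among 72 genes in all, and edgeR called 0. Many of these P450 genes have close neighbours of similar sequence, so their reads may have been divided among copies.

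The genes that act with the receptors gave few differences. Of 13 tested RXR subtypes and partners, 11 had a lower mean log2 value (84.6%, beside 61.4% of all genes tested). At an unadjusted limma p under 0.05, 1 of the 13 was lower (7.69%, beside 5.97% of all genes). It was Nr1h2, the LXR beta gene (log2 fold change -0.38 ± 0.17 SE, limma adjusted p = 0.617). Nr1h3, the LXR alpha gene, was at -0.30 ± 0.16 SE and Ppard at -0.33 ± 0.19 SE. Among 19 coregulators 3 were lower at that level (15.8%, beside 5.97% of all genes), among them Smarca4, a chromatin remodelling ATPase (-0.43 ± 0.16 SE, limma adjusted p = 0.459), and the corepressor gene Ncor1 (-0.60 ± 0.28 SE, limma adjusted p = 0.624). Of 11 genes of the cytoplasmic complex that holds CAR and PXR, 1 was higher (9.09%, beside 1.95% of all genes), the chaperone gene Hsp90ab1, with 45580 ± 4460 in saline and 56790 ± 5850 in LNA29 livers (log2 fold change 0.32 ± 0.14 SE, limma adjusted p = 0.608). Hsp90aa1 was at 0.35 ± 0.20 SE and Egfr at 0.34 ± 0.20 SE. Among 33 other hepatocyte transcription factors 1 was lower and 1 higher at an unadjusted p under 0.05 (3.03% each, beside 5.97% and 1.95% of all genes), Nr1h2 and the stress factor gene Atf4 (log2 fold change 0.36 ± 0.17 SE, limma adjusted p = 0.631). None of the genes in these lists had an adjusted p under 0.05.

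Known targets of the other members were also read out, again with 0 passing the adjusted limma test. Of 32 HNF4A targets 4 were lower at an unadjusted p under 0.05 (12.5%, beside 5.97% of all genes) and 0 were higher, with a median log2 fold change of -0.08. Among them Otc, a urea cycle enzyme gene, ran from 8159 to 10530 in saline and from 4857 to 7208 in LNA29 livers without overlap, as did 0.713% of all genes in that direction (log2 fold change -0.54 ± 0.13 SE, limma adjusted p = 0.141). Of 20 FOXA targets 1 was lower (5.0%, beside the same 5.97%), the bile acid transporter gene Slc10a1 at -0.71 ± 0.22 SE, while the transporter gene Abcc2 was at -0.43 ± 0.25 SE and Tat, a tyrosine-degrading enzyme gene, at 0.53 ± 0.32 SE. Of 25 C/EBP targets 5 were lower (20.0%, beside 5.97%) and 2 higher (8.0%, beside 1.95%), and their median was -0.00. Hsd17b13, a lipid droplet protein gene, ran from 10590 to 12990 in saline and from 14250 to 30100 in LNA29 livers without overlap, as did 0.272% of all genes in that direction (log2 fold change 0.79 ± 0.16 SE, limma adjusted p = 0.0682, DESeq2 adjusted p = 0.000257). The acute phase gene Orm2 was at -0.89 ± 0.31 SE (limma adjusted p = 0.405).

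Cell type markers were read beside these values. None of the tested markers of 6 cell types had an adjusted limma p under 0.05. An unadjusted p under 0.05 held for 1 of 10 Kupffer cell and macrophage, 1 of 10 stellate cell and 1 of 10 endothelial markers. It held for 0 of 12 hepatocyte, 0 of 8 bile duct and 0 of 7 blood cell markers. Of all genes tested 5.97% were lower and 1.95% higher at that level, and the difference from these shares was not tested. The 3 markers were the macrophage receptor gene Marco (log2 fold change 1.08 ± 0.37 SE), the stellate cell gene Ngfr (-0.78 ± 0.30 SE) and the endothelial gene Stab1 (-0.34 ± 0.14 SE). Marco differed in direction from most Kupffer cell and macrophage markers. Of these, 8 had a lower mean log2 value (80.0%, beside 61.4% of all genes tested) and 2 a higher one. The summed level of 10 Kupffer cell and macrophage markers ran from 11800 to 18890 in saline and from 10640 to 22010 in LNA29 livers. For 10 stellate cell markers it ran from 5175 to 6100 in saline and from 4878 to 6644 in LNA29 livers, for 10 sinusoidal endothelial markers from 7111 to 7780 and from 5982 to 7671, and for 8 bile duct markers from 2539 to 4021 and from 2315 to 3002. For 7 blood cell markers it ran from 36960 to 154800 and from 37830 to 172000. The 12 hepatocyte markers, of which albumin makes up most, summed to 34910000 up to 115300000 in saline and to 82960000 up to 99110000 in LNA29 livers, and the lowest sum was that of saline replicate 49. Their part in the members' values was not tested.

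The gene whose pattern over the 12 livers was most like that of a member was looked for among 8989 genes, those whose mean value reached 100. The Pearson r of log2 values is a description. All values in a liver share its depth and length trend, and differences between the pooled groups also enter r. Foxa1 was most like Sod2 (r = 0.954), a mitochondrial superoxide dismutase gene, and had an r over 0.9 with 39 genes. Nr1i3 was most like Hao1 (r = 0.923), a peroxisomal glycolate oxidase gene, and Nr1i2 was most like Arfip2 (r = 0.923). Rxra was most like Tulp4 (r = 0.918), Cebpa like Mid1ip1 (r = 0.921), a regulator of fatty acid synthesis, and Cebpb like Fnip2 (r = 0.893). Foxa2 was most like Fbrsl1 (r = 0.898), Foxa3 like Tomm34 (r = 0.896) and Hnf4a like Mthfs (r = 0.834). The libraries' length trend had r = 0.577 with Foxa2, -0.567 with Foxa3 and -0.552 with Cebpb, and between -0.329 and 0.289 with the members other than these and Foxa1. Its part in these likenesses was not tested.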

How the data were processed

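Messenger RNA of 12 livers was selected by its polyA tail and read from one end. The authors used MapSplice2 for alignment and RSEM for gene quantification (mm9 and RSEM per the labels; versions are not given in the sources used here). The deposited signal values are RSEM reads divided by the upper quartile of the library and multiplied by 1000, with 1 for a gene without reads. Between 92.2% and 93.9% of a liver's values gave a whole number of reads (within 0.02), and recovered reads were rounded for edgeR 4.0.16 and DESeq2 1.42.0. The authors' group means, fold changes and p-values, and 3 unnamed columns, were not used.

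Genes with a mean of at least 10 were tested on log2(value + 1) by limma with a trend (version 3.58.1 in R 4.3.3), and p-values were adjusted over all of them by the Benjamini-Hochberg method. Single values were tested with two-sided exact permutation tests over all divisions of the livers, correlations with 100000 permutations or exactly within a group. The members, lists and relations were chosen with earlier results of these data known. Named genes are all members, in each list any gene with an adjusted p under 0.05 and the 3 smallest p-values among genes averaging 100 or more (of the marker lists, those with an unadjusted p under 0.05), the gene most like each member, and Cyp2b10, Cyp3a11 and Alb. Some genes that this rule names are not reported here. Col3a1, Tomm40l, Tmem189, Sult1d1, Cyp2b9, Cyp2b13, Cyp2c29 and Cyp2c55 were named after their values were seen. Gene models were GENCODE M21 (GRCm38), which is not the authors' build. Scripts were tested on simulated reads. Alternatives were pseudocounts of 0.1 and 10, other filters and scalings, array weights, a length trend covariate, each liver left out in turn, and a fit without values more than 1.5 SD from their group mean. Sums of overlapping genes were added after the data were seen. p-values measure the spread between livers of 1 experiment. Permutation tests ran in numpy 2.4.6, with ranks from scipy 1.17.1 (Python 3.11.15).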

Additional observations from a re-analysis of the deposited data

Results flagged for a closer look

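Within each group of 6 livers, the members, their ratios and 3 readouts were searched for a liver far from the rest by Dixon's criterion, and 4 of 32 groups held such a liver, where chance gives about 1 in 20. LNA29 replicate 54 had a Nr1i3 value of 7697, while the other 5 LNA29 livers were between 4181 and 5207. Saline replicate 43 had a Cebpb value of 2738, against 5045 to 6804 in the other saline livers. In LNA29 replicate 48 the ratio of Nr1i3 to Nr1i2 was 0.981, against 1.85 to 2.70 in the other LNA29 livers. Albumin had a value of 29300000 in saline replicate 49, against 68530000 to 98690000 in the other saline livers. Their causes were not tested.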

How the results depend on the processing

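With 20 genes called by limma, the count was 5 without a filter, 10 with a common median, 58 with array weights, 72 with DESeq2, 126 with the length trend covariate, 217 without values beyond 1.5 SD and between 1 and 29 with a liver left out. Of the members 0 had an adjusted p under 0.05 in these fits, except 1, Nr1i3, without values beyond 1.5 SD. The 2 members with an unadjusted p under 0.05 became 1 with a common median, TMM, edgeR or DESeq2, 4 with the length trend covariate (Nr1i3, Cebpa, Rxra and Foxa1) and 1 to 3 with a liver left out. The count over all genes rose with that covariate too, to 1130 lower and 407 higher, beside 745 and 243 in the main fit. It was 590 lower and 299 higher with a common median and 531 and 368 with TMM. With edgeR it was 479 and 399, and with DESeq2 424 and 364. Unadjusted counts over all genes with a liver left out are not reported here.

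Nr1i3 kept its direction and an unadjusted p under 0.05 in every alternative run (log2 fold change -0.56 to -0.36). For single genes the threshold was set on the exact p, or on the tool's own unadjusted p for edgeR, DESeq2, array weights and the length trend covariate. Values beyond 1.5 SD were left out by the mean and SD of their own group, which narrows the spread within groups. The permutations did not repeat that step, so p-values without these values do not measure the full spread between livers. By the exact p Rxra passed 0.05, though not by its limma p of 0.082, and it did not pass with a common median (-0.21), TMM (-0.19), edgeR (-0.21) or DESeq2 (-0.20), and ranged from -0.35 to -0.20 with a liver left out. Cebpa passed 0.05 by both and did not pass with a common median (-0.35), TMM (-0.33), edgeR (-0.36), DESeq2 (-0.35) or without values beyond 1.5 SD (-0.28), and ranged from -0.48 to -0.28 with a liver left out. Hnf4a turned to 0.01 under TMM and DESeq2 and was -0.20 without values beyond 1.5 SD (permutation p = 0.0238 on the values kept), with -0.15 to 0.01 over the left-out livers. Nr1i2 turned to -0.0018 with array weights and -0.16 without values beyond 1.5 SD, with -0.04 to 0.19 over the left-out livers. Foxa1 passed 0.05 with the length trend covariate (-0.63) and without values beyond 1.5 SD (-0.97), with -0.97 to -0.51 over the left-out livers. Cebpb turned to -0.03 without values beyond 1.5 SD. The causes were not tested.

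Over the left-out livers the log2 difference of Cebpb to Cebpa ranged from 0.40 to 0.86, of Nr1i3 to Nr1i2 from -0.63 to -0.34, of Nr1i2 to Rxra from 0.24 to 0.43 and of Nr1i3 to Rxra from -0.29 to -0.10, and the r of Hnf4a and Rxra from 0.565 to 0.847. Within a group, the r of Nr1i3 and Cyp2b10 was 0.571 in LNA29 livers, of Nr1i2 and Cyp3a11 -0.939 in saline livers, and in LNA29 livers that of Hnf4a and Nr1i3 was -0.197 and of Hnf4a and Rxra 0.233. Of 315 alternatives for single values 255 kept the direction and the side of the threshold. This count includes results that were above 0.05 at first and stayed above it. With a liver left out, the permutation p rose above 0.05 for Rxra in 10 of 12 cases, for Cebpa in 9 and for Nr1i3 to Nr1i2 in 8. It did so for Nr1i2 to Rxra in 4 and for the r of Hnf4a and Rxra in 2, while Nr1i3 stayed under 0.05 in all 12. No paired analysis was possible because no animal number occurs in both groups. Depth limits Foxa1 most, with 8 to 71 reads per liver.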
